A study of Homo sapiens with 2 samples.

Results

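The histone genes of the human genome were followed on expression arrays of TE-1, an established human oesophageal squamous carcinoma cell line, with and without a vector for the transcription factor PAX2. The set holds every array feature whose gene name starts with HIST1H to HIST4H, H2AF, H3F3 or H1F. It came to 148 of the 45033 features and 77 of the 23619 genes on the array. Of these, 117 features of 64 genes carried names of replication-dependent genes and 31 features of 13 genes carried names of variant genes. The name rule also puts a few germ-line genes of the clusters under the first heading, and H1FNT, H1FOO and H2AFB1 under the second.

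The study compared TE-1 cells that received pcDNA3.1, the empty plasmid, with TE-1 cells that received pcDNA3.1-PAX2, to look for genes that PAX2 activates. Both groups were transfected, and total RNA was taken 24 h later and hybridised to 1 Cy3-labelled NimbleGen array per group. The labels describe no selection of transfected cells, and in such bulk RNA fewer cells of a type and less RNA per cell cannot be told apart. With 1 array per group no difference below has a replicate check or a p-value, and precision is limited by how few arrays there are.

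Histones are the proteins around which DNA is wound. H2A, H2B, H3 and H4 form the core of the nucleosome, and H1 binds the linker DNA between nucleosomes. The replication-dependent genes lie in clusters, are transcribed in S phase, and their mRNAs end in a stem-loop bound by SLBP in place of a poly(A) tail. The variant genes are mostly expressed through the cell cycle from polyadenylated mRNAs, but the name rule does not sort genes by mRNA type. How the RNA was primed for labelling is not given in the sources used here, and the near-identical coding sequences of the clustered genes leave it uncertain which copy a feature reports.

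Median feature intensities were 205 (control) and 210.1 (PAX2-labelled), against 20.6 and 19.3 for the 5000 random-sequence probes. The PAX2 feature itself read 22.2 and 22.1, at the level of the random probes on both arrays. It therefore gave no check of the label, and the second array is called the PAX2-labelled array throughout. Of 11 squamous and epithelial markers 6 reached the median feature by the mean over their features, as did 11636 of all 23619 genes. All 6 were higher on the PAX2-labelled array (median difference 0.30), as were 53.2% of all features at that level. KRT5 differed most of the 6, with log2 values of 9.21 and 9.93. The summed intensity of the list was 72758 and 88387. Its brightest genes were SFN, KRT8 and KRT18, at log2 14.90, 14.22 and 13.91 on the control array. The defining markers TP63, CDH1, EPCAM, DSG3 and KRT6A, with differences of 0.15, -0.17, -0.30, -0.73 and -0.40, did not reach the median feature. Leukocyte, endothelial and fibroblast lists had 1 of 5 (CD68), 0 of 4 and 2 of 6 (COL1A1 and DCN) members at that level, and PTPRC had log2 values of 4.26 and 4.27. Summed intensities of these lists were 584 and 470.3, 130 and 175, and 1515 and 1919. The part of other cell types in the histone values was not tested.

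A few stretches of promoter sequence show motifs that many histone genes have in common, and the promoter of the measured member past 2-fold. The windows were chosen after the values were seen. They come from RefSeq (GRCh38.p14), are printed 5′ to 3′ on the plus strand, and carry the motifs in capitals, which are the CCAAT box (CCAAT, or ATTGG on the other strand), the TATA box (TATAAA) and the octamer (ATTTGCAT on either strand). No motif overlaps another in these windows.

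The first window is the whole stretch between the starts of HIST1H2AK and HIST1H2BN, at chr6:27838376-27838568, the divergent pair whose partners differed most between the arrays. It holds 3 CCAAT boxes.
HIST1H2AK and HIST1H2BN: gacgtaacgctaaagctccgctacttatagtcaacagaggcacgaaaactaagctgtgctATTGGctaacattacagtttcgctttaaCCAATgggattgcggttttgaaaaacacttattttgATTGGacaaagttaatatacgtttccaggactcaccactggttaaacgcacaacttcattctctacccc
The second lies between HIST3H2A and HIST3H2BB, at chr1:228457874-228458102, the pair whose partners differed least, and also holds 3 CCAAT boxes.
HIST3H2A and HIST3H2BB: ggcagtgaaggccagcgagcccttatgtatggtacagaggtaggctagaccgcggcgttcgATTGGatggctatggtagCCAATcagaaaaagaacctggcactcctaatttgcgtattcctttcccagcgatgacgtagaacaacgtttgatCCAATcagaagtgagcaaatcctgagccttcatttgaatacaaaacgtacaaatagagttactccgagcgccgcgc
The next lies between HIST1H2BC and HIST1H2AC, at chr6:26123927-26124171, and shows the full set with 3 CCAAT boxes, 1 TATA box and 1 octamer.
HIST1H2BC and HIST1H2AC: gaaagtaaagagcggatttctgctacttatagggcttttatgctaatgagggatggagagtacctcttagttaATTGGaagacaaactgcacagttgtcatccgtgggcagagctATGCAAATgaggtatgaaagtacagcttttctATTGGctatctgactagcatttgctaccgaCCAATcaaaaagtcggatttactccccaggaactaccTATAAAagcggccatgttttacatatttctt
The last is the 250 bases upstream of H2AFY2, at chr10:70052596-70052845, which held none of these motifs. The same was true of H2AFY, HIST1H4E, HIST1H4H and HIST2H4.
H2AFY2: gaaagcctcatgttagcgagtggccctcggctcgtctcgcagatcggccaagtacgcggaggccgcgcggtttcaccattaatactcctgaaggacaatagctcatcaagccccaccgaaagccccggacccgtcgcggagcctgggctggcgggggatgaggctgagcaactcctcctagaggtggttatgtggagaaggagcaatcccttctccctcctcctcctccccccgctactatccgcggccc

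Over all members, 71 of the 77 genes had a RefSeq promoter. In the 250 bases upstream of the start, searched on both strands, CCAAT stood in 84.5% of the histone promoters and in 33% of all 27305 promoters. TATAAA stood in 60.6% and 11.1%, and the octamer ATTTGCAT in 36.6% and 1.66%. Divergent neighbours share bases of their windows and are not independent. Among the replication-dependent names, CCAAT was found in 6 of 6 H1, 15 of 15 H2A, 17 of 17 H2B and 10 of 10 H3 promoters but in 3 of 11 H4 promoters. The octamer, the recognition sequence of POU factors such as OCT1, stood in 13 of 17 H2B and 11 of 15 H2A promoters, in 1 of 10 H3 promoters and in none of the 6 H1 or 11 H4 promoters. The string GTCACGC, a core of sites bound by paired domains such as that of PAX2, stood in 0 of the 71 histone promoters and in 2.27% of all promoters, which says only that these letters were not in these windows.

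The typical histone feature read nearly the same on both arrays. This rests on a median over features and is not a measure of total histone mRNA. A feature was counted as measured if it reached the median feature on at least 1 array (log2 7.68 on the control array or 7.71 on the PAX2-labelled array). This held for 115 of the 148 histone features (77.7%, against 52.1% of all features) and for at least 1 feature of 65 of the 77 genes. The median difference, PAX2-labelled minus control on the log2 scale, was 0.003 over the 115 histone features and 0.02 over all 23459 measured features. There were 58 histone features above 0 and 57 below, and 53.2% of all measured features were above 0, the share beside which the counts by type below stand.

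Large differences were few among the histones. One of the 115 measured features was at least 2-fold higher, which is 0.870%, beside 1.74% of all measured features (a call that quantile scaling, loess scaling or an offset of 64 ended), and 0 were at least 2-fold lower, beside 1.48%. At 1.5-fold, 4 features were higher and 1 was lower, together 4.35% against a background of 10.8% (6.92% higher and 3.92% lower). Without the filter, 6 of the 148 features (4.05%) differed at least 2-fold, against 9.9% of all 45033. Histone features were bright more often than others, and dim features differ more between the arrays. Among features whose mean log2 intensity was at or above the 75th percentile, the differences of 71 histone features had an SD of 0.19 and lay between -0.55 and 0.48, and those of all 11259 such features had an SD of 0.27.

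**Figure D1:**
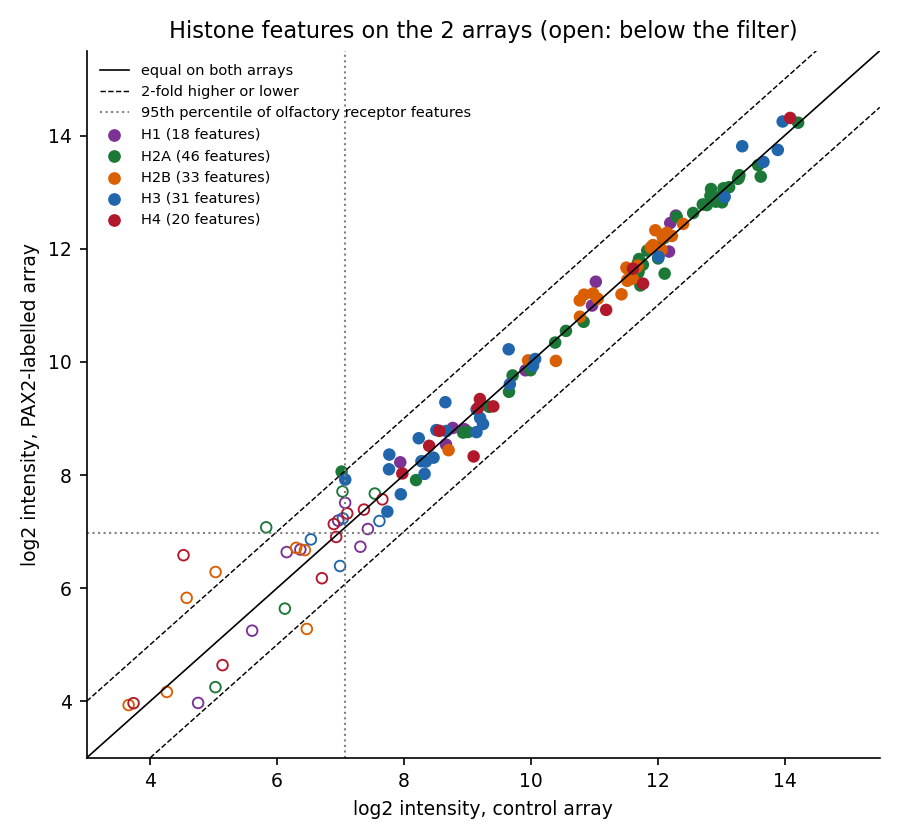
Log2 intensity of the 148 histone features on the control array (horizontal axis) and the PAX2-labelled array (vertical axis), coloured by histone type, with filled points for the 115 that reached the median feature on at least 1 array. One filled point, a feature of H2AFY2, lies past the dashed 2-fold line, and the open points that do so are all dim.

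The linker histones H1 had a median difference of 0.05 over 10 measured features, 6 of them above 0. HIST1H1C, which encodes H1-2 and is among the somatic H1 subtypes of dividing cells, had features of 2000 and 2083 on the control array and of 2042 and 2735 on the PAX2-labelled array. Its features thus differed by 0.03 and 0.39. HIST1H1E read 406 and 437 on the control array and 372 and 456 on the PAX2-labelled array, one feature lower by 0.13 and the other higher by 0.06. HIST1H1D, whose filtered feature was the dimmest of the type, went from 246 to 299 (0.28). H1FX, a replication-independent linker histone and the brightest of the type, was higher in both features, at 4997 and 4700 against 6148 and 5613 (0.30 and 0.26). H1F0, the linker histone of quiescent and differentiated cells, was lower, at 4636 and 3957 (-0.23). All of these are smaller than 1.5-fold.

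The H2A features had a median difference of -0.04, with 15 of 41 above 0 and 26 below. Among the replication-dependent H2A features 8 were above 0 and 17 below. HIST1H2AK went from 4419.8 to 3019 (-0.55, 1.46-fold lower), the largest difference among the histone features at or above the 75th percentile. HIST1H2AM was lower in all 3 features, from 3322, 3390 and 3312 to 3111, 2612 and 3052. HIST1H2AC was lower in all 3 as well, by 0.25, 0.18 and 0.04. HIST1H2AH had the highest difference of the replication-dependent H2A features, at 5041 and 6057 (0.26).

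Among the H2A variants, H2AFY2 had the single feature past 2-fold. It encodes macroH2A2, an H2A with a large macro domain found in silent chromatin, and lies at 71482622 to 71556244 of chromosome 10 (HG18). Its first feature read 129.7 in the control and 267 in the PAX2-labelled sample, which differ by 1.04 on the log2 scale. The control value lay within the range of the olfactory receptor features, a family that epithelial cells mostly leave silent (95th percentile at log2 7.07 and 6.98), so only a bound can be given, at least 1.99-fold higher. The second feature pointed the same way at 131 and 209, at least 1.56-fold higher, and fell just short of the median feature. The first feature passed the filter only through the PAX2-labelled array, where it was higher, so its difference was in part fixed by the filter. Its difference was 1.00 with quantile scaling (just under the threshold), 0.98 with loess scaling and 0.77 with an offset of 64, and the 2-fold call was lost in each. H2AFY, which encodes macroH2A1, was bright and slightly lower in all 3 features, at 12627, 9925 and 12275 on the control array and 9913, 9770 and 11406 on the PAX2-labelled array. Its differences were -0.35, -0.02 and -0.11. Neither macroH2A difference has a replicate, and whether the 2 genes differ from each other was not tested.

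The other H2A variants were close to equal on the arrays. H2AFZ and H2AFV encode the H2A.Z proteins, which mark promoters. The features of H2AFZ, the brightest of the type, read 18998 and 8941 on the control array and 19184 and 8709 on the PAX2-labelled array, and differed by 0.01 and -0.04. The 6 features of H2AFV lay between -0.19 and 0.10. H2AFX, whose product is phosphorylated at DNA breaks, read 4403 and 4679 (0.09). H2AFJ had 3 features at 0.13, -0.28 and -0.18.

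The H2B features had a median difference of 0.07, with 19 of 26 above 0 and 7 below, and spread the least of the 5 types (SD 0.18). HIST1H2BK went from 1833 and 1748 to 2334 and 2175 (0.35 and 0.32) and HIST1H2BL from 4429 and 3992 to 4887 and 5136 (0.14 and 0.36). HIST1H2BJ was lower in both features, from 417 and 2758 to 347 and 2343 (-0.26 and -0.24), and its first feature was the dimmest of the type to pass the filter. HIST2H2BE, which had the brightest H2B feature, read 5406 and 1347 on the control array and 5553 and 1036 on the PAX2-labelled array. Its 2 features therefore went opposite ways, by 0.04 and -0.38. No measured H2B feature reached 1.5-fold.

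Among the H3 features, 3 of 27 were at least 1.5-fold higher, beside 6.92% of all measured features, and the median of the type was -0.06, with 11 above 0. HIST1H3A went from 403 to 625 (0.63, 1.55-fold) in its single feature, which lies at 26128696 to 26129165 of chromosome 6 on HG18. HIST1H3H, at 27885820 to 27886293 of the same chromosome, had 3 features, at 135, 310.1 and 566 on the control array and at 242, 303 and 433 on the PAX2-labelled array. Only the first, the dimmest of the measured H3 features on the control array, was higher (0.84, 1.79-fold), and it passed the filter only through the PAX2-labelled array. The others were at -0.03 and -0.39. HIST3H3, a histone H3 gene of the testis at 226679162 to 226679697 of chromosome 1, likewise had features of opposite sign, 218 and 329 (0.59, 1.51-fold) beside 588 and 515 (-0.19). HIST1H3F came just under the threshold in 1 of 3 features, at 804 and 1195 (0.57), and its other features were at -0.06 and -0.39. The feature SD within a gene, pooled over the 35 histone genes with several measured features, was 0.26.

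H3F3A and H3F3B encode the same protein, the replacement histone H3.3. H3F3A had 4 features, at 13009, 16046, 15218 and 10316 on the control array and at 11865, 19475, 13750.2 and 14381 on the other. Their differences were -0.13, 0.28, -0.15 and 0.48, so the sign was mixed and the spread over the features covers 0. H3F3B had 2 measured features, 8515 and 4136 against 7720.4 and 3711 (-0.14 and -0.16). Its remaining feature read 132 and 151 and did not reach the filter.

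The H4 features had a median of 0.04, 7 of 11 above 0, and a mean of -0.07, so the sign depended on the summary. HIST1H4C, the brightest of the type, read 17407 and 20341 (0.22). HIST1H4F, at 26348539 to 26348964 of chromosome 6, was the only measured histone feature at least 1.5-fold lower, from 548 to 321 (-0.77, 1.71-fold), and its other feature went from 587 to 649 (0.14). HIST1H4B went from 3491 to 2670.1 (-0.39) and HIST2H4 from 2332 to 1936 (-0.27). HIST1H4A was the dimmest to pass, at 252 and 261 (0.05).

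**Figure D2:**
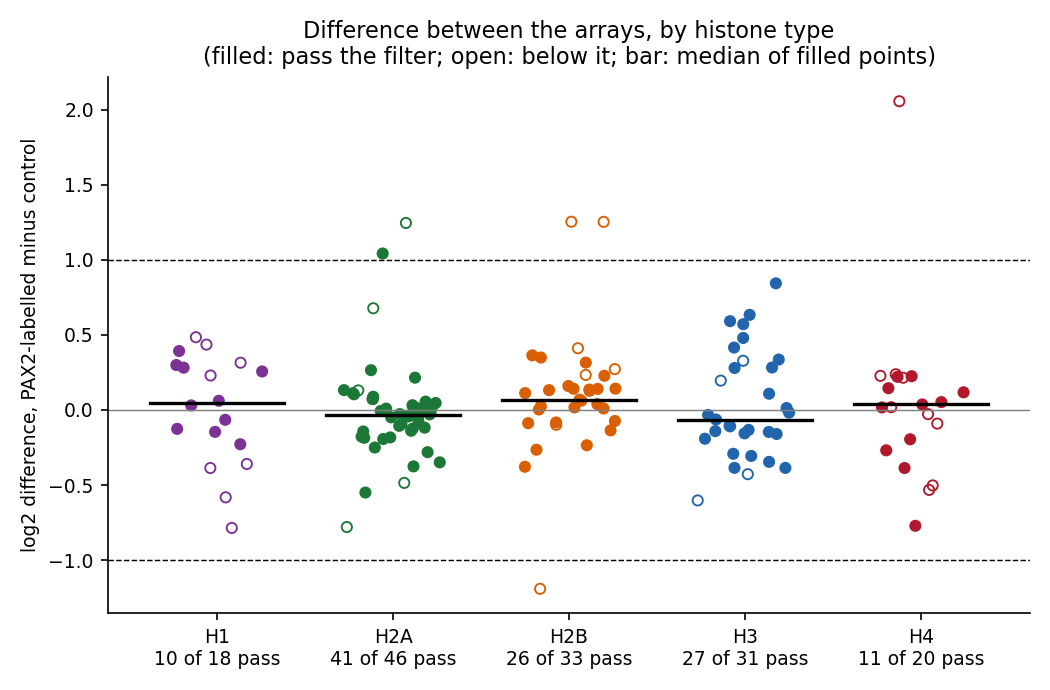
Log2 difference of each histone feature, PAX2-labelled minus control, by type, with filled points for features that passed the filter, open points for those below it and a bar at the median of the filled points. The medians lie between -0.06 for H3 and 0.07 for H2B, and 1 filled point, from H2AFY2, passes the dashed 2-fold line.

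The genes lie in blocks, given here on HG18, and the blocks differed little. The large second block of chromosome 6 (26125226 to 26393741) had 44 of 59 features measured and a median of -0.02. The next block (27199618 to 27223325) had 8 of 10 and the last (27883190 to 27969648) 23 of 27, both with medians of 0.06. In the HIST2 block of chromosome 1 (148078882 to 148126090), taken by gene name, all 9 features were measured. Of these, 2 were above 0 and 7 below, and the median was -0.08. A measured HIST1H2BB feature (0.11) that the array places inside these coordinates was not counted in the block. The HIST3 block (226679162 to 226712882) had 5 of 5 measured and a median of 0.02. The first block of chromosome 6 holds the testis genes HIST1H2AA and HIST1H2BA, and none of its 4 features was measured. Of the 11 features of 7 germ-line members (these genes with HIST1H1T, HIST3H3, H1FNT, H1FOO and H2AFB1, a list written after the values were seen), 2 were measured, both of HIST3H3.

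Measured features with a longer span did not stand apart in the difference. Some replication-dependent genes also have longer, polyadenylated transcripts, and 24 features of these genes span over 1000 bp of the genome. Of these, 14 were measured, with a median of -0.01, against 76 of 93 shorter ones with a median of 0.01. The span does not tell which transcript the probes of a feature read. Replication-dependent names as a whole had a median of 0.01 (90 features) and variant names of -0.03 (25 features).

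Features of the same histone gene often differed in brightness. Signals of different probes do not give an order of mRNA amounts, and the features named above for the highest or lowest signal of a type are named for their signal alone. Of the 49 genes with several features, 23 had features over 1 log2 unit apart on the control array and 8 had features over 3 apart. HIST1H2BN had one feature at 23.8, near the random-sequence probes, and another at 3793. HIST1H2BI had features at 19.2 and 1751, HIST1H2BC at 88.6 and 4329, and HIST1H2BD at 78.9, 86.8, 3119 and 3886. The dim features of these genes, of H3F3B (132) and of HIST1H1A (82.6) lay within the olfactory receptor range on the control array, so no fold is given. H2AFJ and HIST1H2AI complete the 8, with features at 292 to 4115 and 807 to 7336. The median range within a gene was 0.87 for the level on the control array and 0.33 for the difference between the arrays, and the differences were over 1 apart in 4 genes (HIST1H2BC, HIST1H2BN, HIST1H3H and HIST4H4). In 22 of the 49 genes every feature had the same sign.

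**Figure D3:**
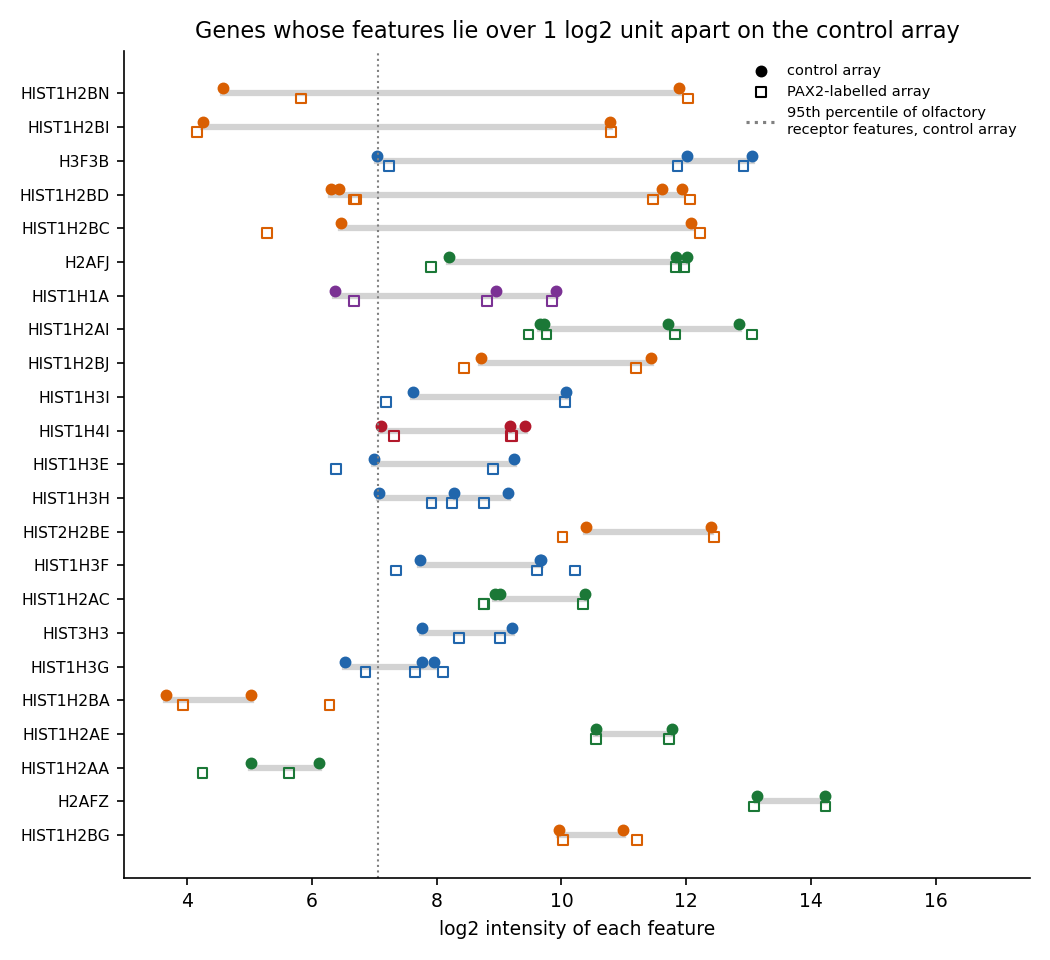
Log2 intensity of each feature of the 23 histone genes whose features lie over 1 log2 unit apart on the control array, with circles for the control array, squares for the PAX2-labelled array and a grey bar for the range on the control array. For each feature, circle and square lie closer to each other than the features of the gene do in HIST1H2BN, where 23.8 stands beside 3793.

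The array's own coordinates placed some features on the locus of another member. One HIST1H2BB feature lies on chromosome 1 over HIST2H2BE, and 2 HIST1H2AI features lie over HIST1H2AH and HIST1H2AL, with overlaps of 410 and 471 bp. HIST1H2AD and one HIST1H3D feature overlap by 454 bp, and HIST1H4I lies inside the span of HIST1H2BK. Whether values of these genes share RNA was not tested.

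The 12 genes with no measured feature were H1FNT, H1FOO, HIST1H1B, HIST1H1T, H2AFB1, HIST1H2AA, HIST1H2AG, HIST1H2BA, HIST1H4D, HIST1H4E, HIST1H4G and HIST4H4. Of the 33 features below the filter, 20 lay within the olfactory receptor range on both arrays and 6 on one. Differences of the 398 olfactory receptor features themselves had an SD of 0.82. The features below the filter that differed at least 2-fold belonged to H2AFB1, HIST1H2BA, HIST1H2BN, HIST1H2BC and HIST4H4. H2AFB1 went from 56.9 to 135 and has a bound of at least 1.00-fold. HIST1H2BA (1.25), HIST1H2BN (1.25), HIST1H2BC (-1.19) and HIST4H4 (2.06, at 23.0 and 95.8) lay within that range on both arrays and get no fold. The other HIST4H4 feature stood at -0.50.

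Many H2A and H2B genes are transcribed away from each other from a shared promoter. Within 500 bp of each other on RefSeq, 11 such pairs of members were found, with 194 to 248 bp between starts, and in 9 both genes had a measured feature. The H2B partner had the higher difference in 7 of the 9, and both partners had the same sign in 4. The median of H2B minus H2A was 0.18, within a range from -0.13 to 0.68. HIST1H2AK and HIST1H2BN were farthest apart, at -0.55 and 0.13, followed by HIST1H2AC and HIST1H2BC at -0.16 and 0.14. HIST3H2A and HIST3H2BB were nearly equal, at 0.02 and 0.02. An octamer stood between the starts in 6 of the 9 pairs. The 6 members without a RefSeq promoter could not be paired. Among them was HIST1H2AH (0.26), whose feature lies next to those of HIST1H2BK (0.33) on HG18. These pairs were drawn up after the values were seen, and different probes stand for the partners.

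**Figure D4:**
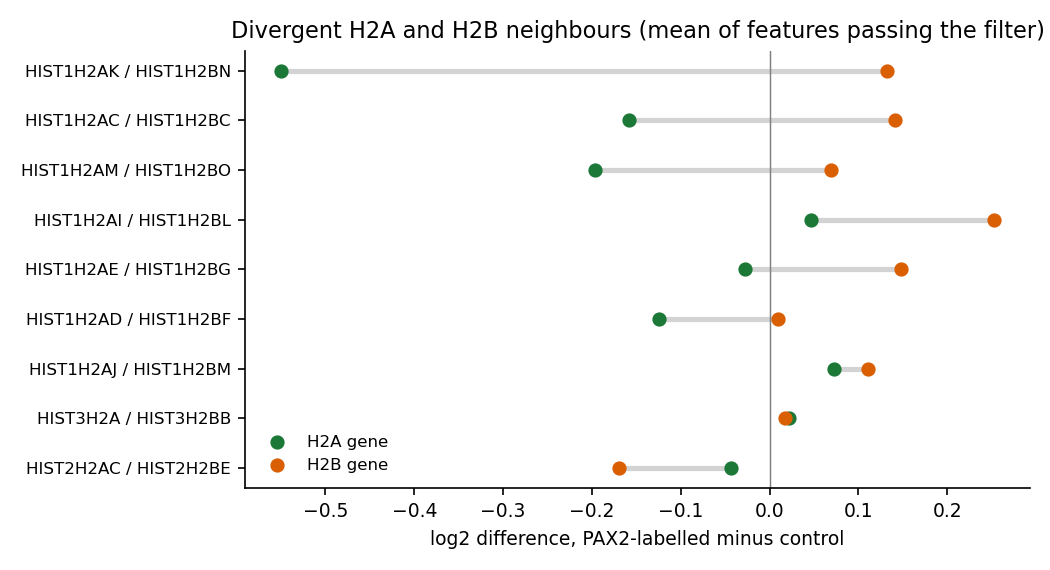
Log2 difference, PAX2-labelled minus control, of the H2A gene (green) and the H2B gene (orange) of the 9 divergent pairs with both genes measured, each point the mean over the measured features of a gene. The H2B point lies to the right of the H2A point in 7 pairs, and the widest gap is 0.68.

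The genes that make, process and deposit histones were also close to equal as a group. Each gene was taken here as the mean over its features, whereas the histone counts above are of single features. By that mean 50 of the 53 genes were measured, and 0 differed at least 2-fold (2.29% of all 11636 measured genes did). There were 27 above 0 and 23 below, and the median was 0.04 against 0.02 for all measured genes. SLBP, the protein that binds the stem-loop of replication-dependent mRNAs, was the lowest, at 1920 and 1154 in its single feature (-0.73, 1.66-fold). LSM1 of the decay machinery (-0.34) and NCBP2 of the cap-binding complex (-0.31) followed. The highest were SRCAP, the remodeller that exchanges H2A for H2A.Z, at 0.37 and 0.86, ASF1A, a chaperone of H3 and H4, at 0.03 and 1.19, and SYMPK, a scaffold of the cleavage complex, at 0.21 to 0.59. The second ASF1A feature, from 190 to 432, was past 2-fold by itself and passed the filter only through the PAX2-labelled array. NPAT, the coactivator of clustered histone genes, did not pass the filter. It read 181 and 79.8, the latter within the olfactory receptor range, so it was at least 1.44-fold lower. Its partner in histone locus bodies, CASP8AP2, went from 283 to 237 (-0.26).

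Among the other chaperones and loaders, TONSL stood at 0.34 and HAT1, which acetylates new H4, at -0.30. The replication-coupled factor CAF-1 stood at -0.09 (CHAF1A) and 0.16 (CHAF1B), NASP at -0.11, ASF1B at 0.18, and the H3.3 loaders HIRA at 0.17 and DAXX at -0.01. The centromeric H3 variant CENPA, which the name rule leaves out, was at -0.07 and its loader HJURP at -0.002. LSM11 of the U7 particle (0.69) and ATRX (0.66) lay below the filter.

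Markers of S phase and proliferation, beside which the replication-dependent genes must be read, were measured in 16 of 16 cases with 9 above 0 and 7 below. Their median was 0.01, from -0.43 for CDK1 to 0.46 for TOP2A, and their summed intensity was 113455 and 116161. PCNA stood at -0.12, RRM2 at 0.02 and TYMS at 0.01. The part of the cell cycle in the histone values was not tested.

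**Figure D5:**
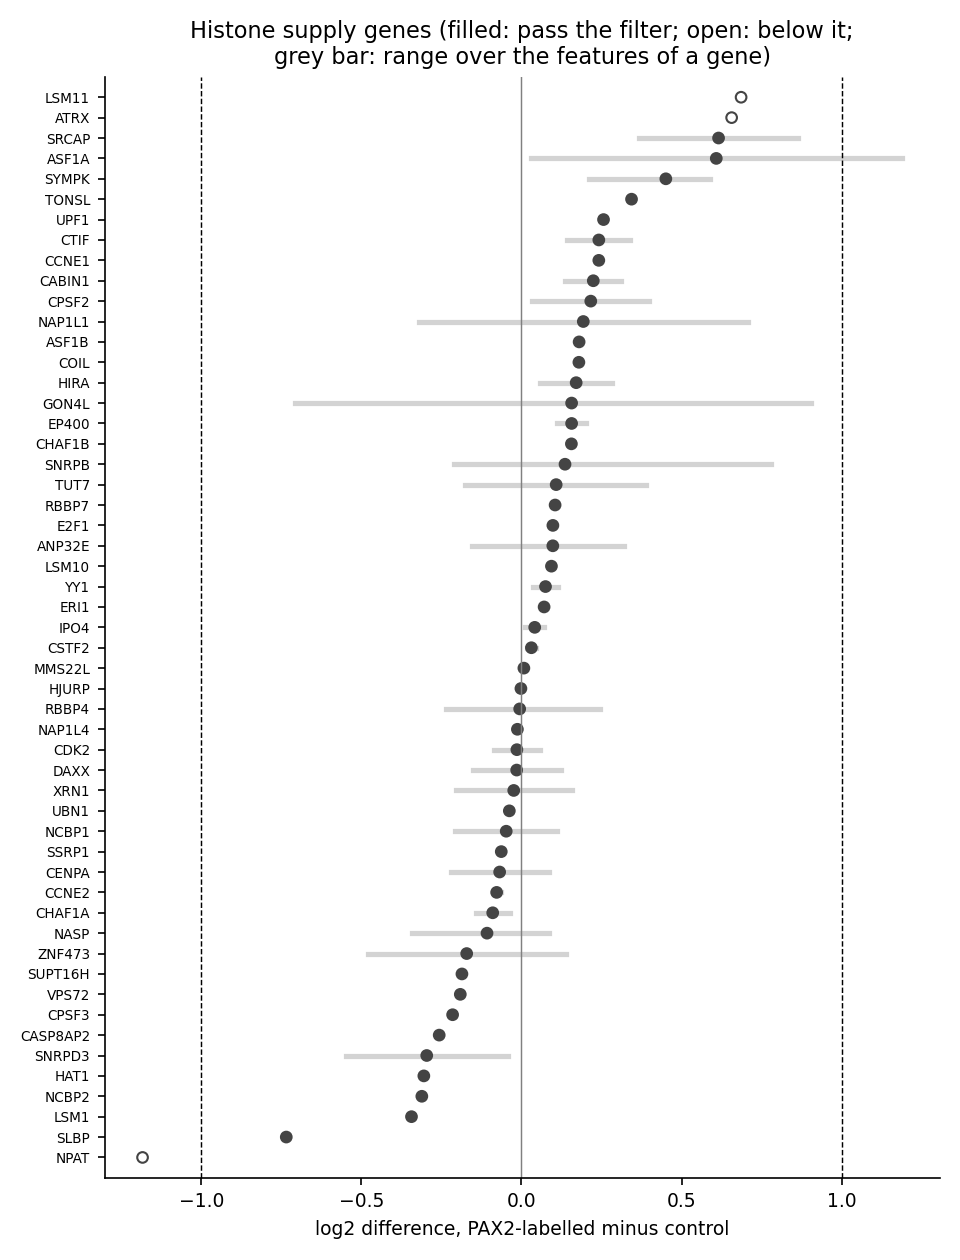
Log2 difference, PAX2-labelled minus control, of the 53 genes of histone gene activation, mRNA processing, decay and chaperoning, with filled points for genes that passed the filter, open points for those below it and grey bars for the range over a gene's features. Points are means over a gene's features. No filled point passes the dashed 2-fold lines, SLBP is the lowest filled point at -0.73, and NPAT is an open point.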

How the data were processed

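The deposited values are linear intensities, 1 per feature and array, summarised by the authors with RMA, per the submitters' processing notes. Its version, background step and between-array step are unknown here (not given in the sources used here). Feature names and coordinates are those of the array design on HG18, per the file headers. Each histone feature held 3 probes. Current symbols were taken through the gene ID (77 of 77 genes matched, RefSeq table of GRCh38.p14).

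Intensities were put on the log2 scale without an offset and the control array was subtracted from the PAX2-labelled array. The members, the lists of supply genes and markers, and the tests were chosen with earlier results of these data known. Named are members at least 1.5-fold different and measured, the brightest and dimmest measured gene of each type, every measured variant gene, genes whose features differ by over 1 log2 unit, unmeasured members past 2-fold, and the 3 supply genes with the largest differences each way. Further examples were chosen after their values were seen. Where 1 array was within the 95th percentile of olfactory receptor features, the fold is a bound against that percentile. RefSeq promoters and their motifs were added after the values were seen.

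Alternatives were the series table, centring, quantile and loess scaling (fraction 0.3), the 75th percentile or nothing as the filter, an offset of 64, thresholds of 1.5-fold and 3-fold, gene means or brightest features, and means for medians. Counting was tested on simulated data with large shifts planted in bright features and less noise than the arrays show. That checks the code, and not how noise in these data moves the counts. Python 3.11.15, pandas 2.3.3, numpy 2.4.6, statsmodels 0.14.6 and matplotlib 3.10.9 were used.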

Additional observations from a re-analysis of the deposited data

How the results depend on the processing

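The count of 1 histone feature at least 2-fold higher went to 0 with quantile scaling, loess scaling and the offset of 64 (where the H2AFY2 feature stood at 1.00, just under the threshold, 0.98 and 0.77), with the filter at the 75th percentile, the 3-fold threshold and gene means, to 4 at 1.5-fold and to 5 without the filter. The count of 0 lower went to 1 at 1.5-fold and without the filter. The filters, thresholds and gene means change what is counted by construction, and the offset shrinks ratios of dim values by construction. For quantile and loess scaling the cause was not tested. Medians moved by less than the feature SD within a gene (0.26 for histones, and 0.31 over all genes, used for the supply genes). That SD is the spread of single features, a loose bound for a median, so it does not show that the medians were stable. Over 9 settings the histone median lay between -0.03 and 0.02, H1 between 0.01 and 0.26, H2A between -0.07 and -0.02, H2B between 0.03 and 0.11, H3 between -0.14 and 0.06, and H4 between -0.12 and 0.04. Replication-dependent names lay between -0.02 and 0.03, variant names between -0.06 and 0.03, and supply genes between 0.002 and 0.04. The sign turned in 3 settings for all histones and for replication-dependent names, in 1 for variant names, in 2 for H3 and in 4 for H4, and in 0 for H1, H2A, H2B and the supply genes. The series table repeated the reported medians, so it could not turn a sign, and the offset keeps the sign of every feature by construction. Signal near background limits the dim features, and 1 array per group limits all. No paired analysis was possible because neither group has more than 1 array.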

Other observations

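Some histone genes carried names outside the rule, and their values were looked up after the others were seen. The array's feature for H4/o, now H4C15, read 2682 and 2035 on the control and PAX2-labelled arrays (-0.40), beside -0.27 for HIST2H4, now H4C14 (H4/o lies at 148070855 to 148072671 of chromosome 1 on HG18, outside the HIST2 block as given above). H3-7 had 2 measured features, one from 330 to 189 (-0.80) and the other from 1223 to 1073 (-0.19), and a dim one at 26.3 and 32.7. The array places the first at 120707556 to 120716365 of chromosome 1 and the second at 147666755 to 147667166. Whether they report the same gene was not tested. The first passed the filter only through the control array, where it was higher. H2BFS read 3084 and 3331 (0.11). Features named for the H3 genes and pseudogenes H3-5, H3Y2, H3P44 and H3P16, which lie on 4 different chromosomes, read between 9765 and 10017 in the control and between 9128 and 10262 in the other sample. These are different probes, and whether they report the same RNA was not tested. H3Y1 and H3P21 lay at log2 6.01 and 5.65 on the control array. H2BFWT, a germ-line H2B, was dim on both arrays at 29.3 and 110 (1.91).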
